A study of Mus musculus with 24 samples.

Results

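The livers of mice given di(2-ethylhexyl) phthalate (DEHP) together with ethanol were compared with those of mice given the vehicle. The comparison takes the 6 libraries whose titles name DEHP at 2500 mg/kg body weight plus ethanol at 1 g/kg, called the combination here, and the 6 whose titles name 0.5% CMC, which makes 12 of the 24 libraries measured. All animals were male C57BL/6 mice of 20 to 30 g, treated by gavage, and the tissue was liver. Another 6 libraries each came from mice given DEHP alone at 2500 mg/kg and ethanol alone at 1 g/kg, and both are used below to place the combination beside its parts. CMC is given as the gavage of the vehicle mice, and whether DEHP and ethanol were also given in it is not stated. If they were not, carrier and treatment cannot be told apart. Duration, time of collection and batch are likewise not given, and the 6 libraries of a group of 12 mice are tied to no single animal. The p-values accordingly reflect only how far these libraries spread, some of which may be technical.

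DEHP is a plasticiser whose metabolites activate PPARalpha in rodent liver. This nuclear receptor binds DNA together with RXR and switches on genes that take up fatty acids and oxidise them in microsomes, peroxisomes and mitochondria. DEHP is also known as an activator of CAR, a receptor that induces drug-metabolising cytochromes P450. Ethanol is oxidised in hepatocytes by alcohol dehydrogenase, CYP2E1 and catalase to acetaldehyde, which aldehyde dehydrogenases convert to acetate.

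The 12 libraries held 7510462 to 8016662 expected counts (estimated reads per gene) and listed 14062 to 15114 genes each. In a principal component analysis of these libraries the first component, with 41.9% of the variance, ran from -31.97 to -23.58 in vehicle and from 17.71 to 38.52 in the combination. The second, with 17%, set vehicle 1 (43.7) and combination 6 (30.18) apart from the other 10 libraries. These were the libraries with skeletal muscle RNA: the summed level of 16 muscle genes was 8405 FPKM (fragments per kilobase of transcript, scaled to library size) in vehicle 1 and 6181 in combination 6, against 4.18 to 8.63 FPKM in the other 10. Acta1, skeletal muscle actin, stood at 1775 and 1460 FPKM there and at 0.91 or less in the other 22 libraries. The sum of 7 adipocyte genes was 70.0 FPKM in vehicle 1 against 11 to 16.1 in the other vehicle libraries, and 129.7 in combination 6 against 30.7 to 59.1 in the other combination libraries. The sum of 10 stellate cell and fibroblast genes was 256 and 216 FPKM in these libraries against 70.1 to 106 in the rest of the 12. In whole tissue, fewer cells of a type and less RNA per cell cannot be told apart. Results are given with all 12 libraries, and counts of gene lists also without vehicle 1 and combination 6, called the muscle libraries here.

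**Figure D1:**
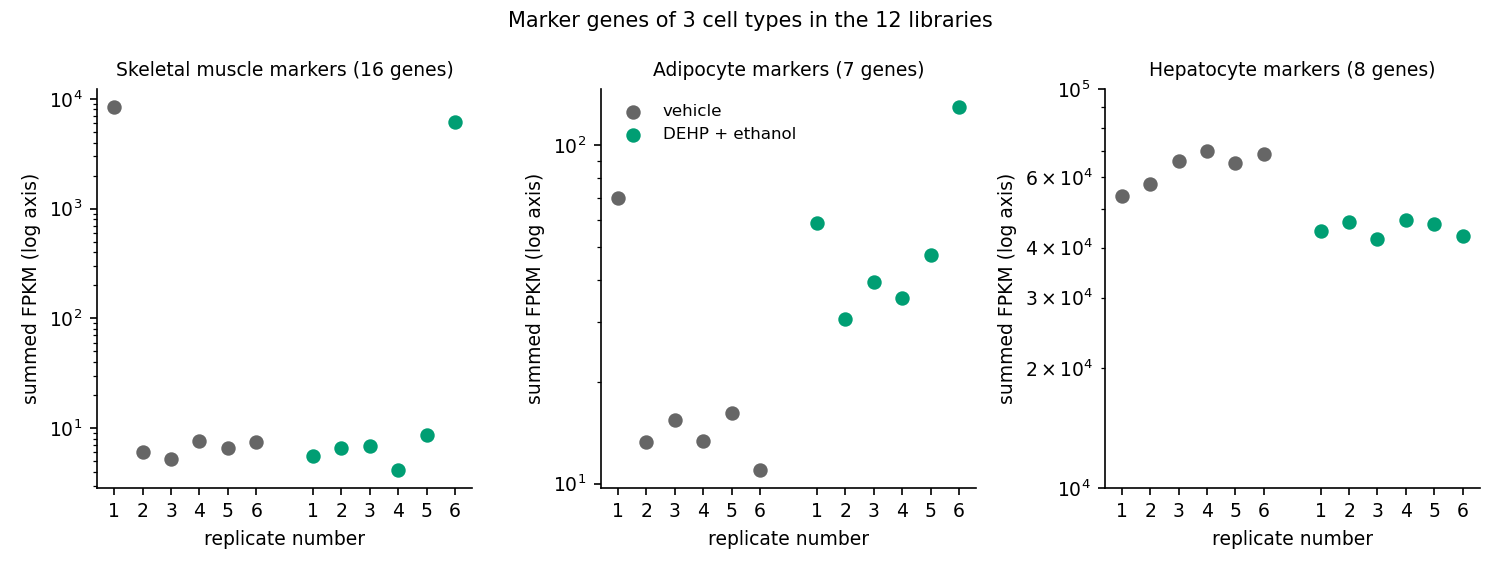
Summed FPKM (log axes) of 16 skeletal muscle, 7 adipocyte and 8 hepatocyte marker genes in vehicle replicates 1 to 6 (grey) and combination replicates 1 to 6 (green), 1 point per library. Vehicle 1 and combination 6 stand far above the other libraries in muscle genes and highest of their groups in adipocyte genes, and all 6 combination libraries lie below all 6 vehicle libraries in hepatocyte genes.

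Of 10697 genes tested, 2067 were higher in the combination (19.3%) and 1865 were lower (17.4%), 36.8% in all, by edgeR's quasi-likelihood test with a Benjamini-Hochberg adjusted p below 0.05. A gene that passed is said here to have risen or fallen. The median change over all genes tested was -0.01 on the log2 scale. Of the genes that rose, 255 did so by a log2 change of at least 1 and 62 by at least 2, and of those that fell, 195 and 29 did. FPKM ranges of the 2 groups did not overlap for 16.1% of genes tested. Without the muscle libraries 1807 genes rose and 1930 fell, and 1720 of the genes that had risen and 1685 of those that had fallen passed again in the same direction.

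**Figure D2:**
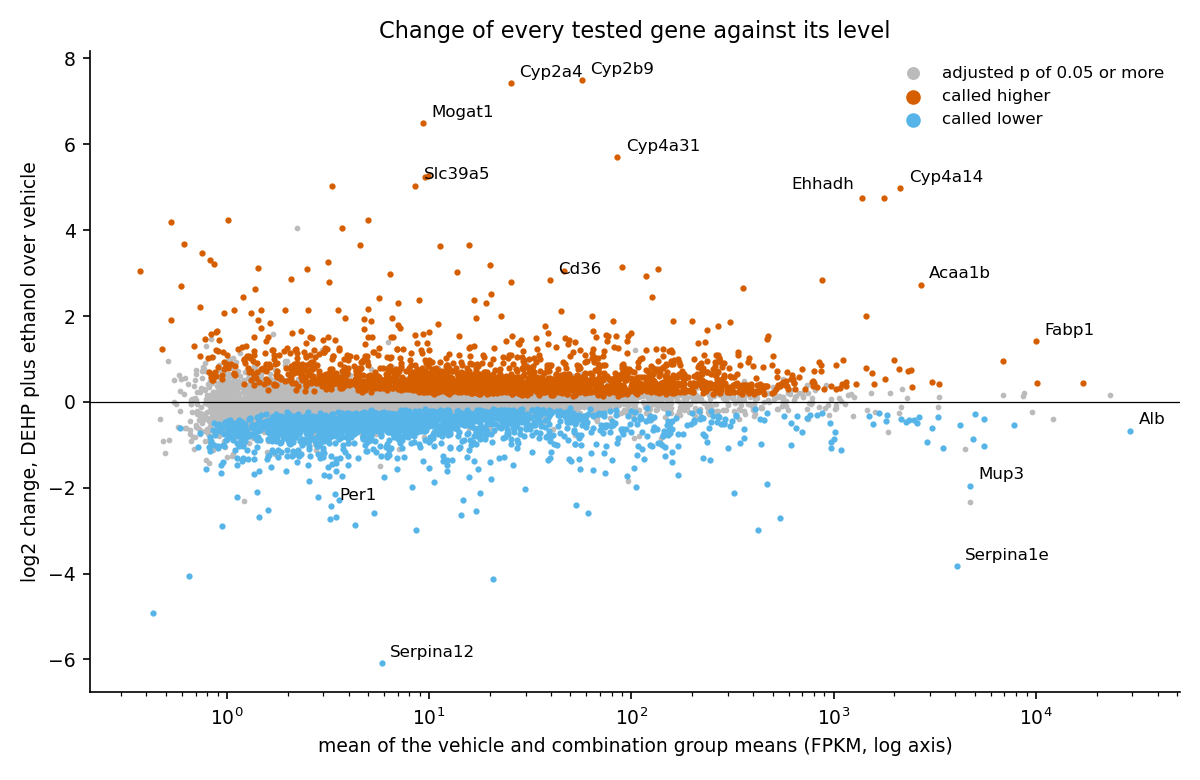
Log2 change of the combination over vehicle for each of 10697 tested genes (y axis) against the mean of the 2 group means in FPKM (x axis, log scale). Orange points passed as higher, blue points as lower and grey points did not pass, and the changes with the greatest size lie at Cyp2b9 (7.5) and Serpina12 (-6.09).

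Among the genes with the greatest rises were cytochromes P450 and a lipid enzyme at under 1 FPKM in the median vehicle liver. All of these reached the level needed for testing (1 FPKM in at least 6 of 24 libraries) only through libraries given DEHP. Cyp2b9, a P450 usually expressed in female liver (chr7:26173350-26210661, GRCm38.p6), stood at 0.08, 0.27 and 2.57 FPKM in vehicle (lowest, median and highest library) and at 12.7, 115 and 212 FPKM in the combination, a log2 change of 7.5 ± 0.76 (SE, n = 6 per group, edgeR adjusted p = 4.52e-08). Cyp2a4, another P450 usually expressed in females, went from a median of 0.31 to 45.3 FPKM (7.42 ± 0.53), with all 6 combination libraries at 15.4 FPKM or more and no vehicle library above 0.60. Mogat1, a monoacylglycerol acyltransferase of triglyceride synthesis (chr1:78511060-78606964), went from 0 to 0.61 FPKM in vehicle to 13.4 to 22.1 FPKM in the combination (6.49 ± 0.37, adjusted p = 2.12e-12). No vehicle library reached the range of the combination for any of these genes. Slc39a5, a zinc transporter, rose by 5.04 ± 0.33, Rad51b, a homologous recombination gene, by 5.25 ± 0.41, Ly6d, a surface protein, by 5.23 ± 0.79 and Chil1, a chitinase-like protein, by 5.03 ± 0.87 on the log2 scale. These genes, too, reached the level needed for testing only through libraries given DEHP. Chil1 varied most among these, from 0.91 to 19.7 FPKM within the combination.

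Microsomal omega hydroxylases, which oxidise the far end of fatty acids, rose from moderate to very high levels. Cyp4a14 (chr4:115486200-115496158) stood at 26.0, 119 and 239 FPKM in vehicle and at 3143, 4130.0 and 5117 FPKM in the combination (lowest, median, highest; 4.98 ± 0.43, edgeR adjusted p = 3.54e-09). The lowest combination library was far above the highest vehicle library. Cyp4a10 went from a median of 127 to 3470.4 FPKM (4.76 ± 0.31) and Cyp4a31 from 3.07 to 159 FPKM (5.71 ± 0.28), although reads of these near-identical neighbours may have been shared in the counting. Of 11 omega hydroxylation genes, 8 rose and 2 fell, and 7 and 2 did so without the muscle libraries, with a median log2 change of 1.76. Those that fell are P450s of other subfamilies, Cyp4f14 (from a median of 165 to 87.0 FPKM, adjusted p = 5.39e-06) and Cyp4v3 (-0.58 ± 0.11).

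Peroxisomal fatty acid oxidation rose in 20 of 28 genes and fell in none, with a median of 0.84, and without the muscle libraries in 19. Ehhadh, the bifunctional enzyme of the pathway (chr16:21761285-21787834), stood at 65.8, 105 and 122 FPKM in vehicle and at 1757, 2682 and 3472 FPKM in the combination (4.76 ± 0.24, edgeR adjusted p = 2.41e-13). Acaa1b, a thiolase, rose by 2.73 ± 0.21 and Ech1, an isomerase, by 1.54 ± 0.11, again with no overlap of the groups. Acot3, a peroxisomal thioesterase, went from a median of 0.66 to 8.17 FPKM (3.66 ± 0.49), and Pex11a, which promotes peroxisome division, from 34.7 to 62.6 FPKM (0.79 ± 0.13). Without libraries given DEHP, Acot3 would not have reached the level needed for testing. Cat, peroxisomal catalase, had medians of 1211 and 1315 FPKM and overlapping groups (0.19 ± 0.08, adjusted p = 0.0776). It did not pass here, but passed without vehicle 4 and in both limma fits on log2 FPKM. The 39 genes of this list and the omega hydroxylation list together took 1.56 to 2.06% of all expected counts in vehicle and 4.93 to 6.79% in the combination.

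Ppara, the receptor itself, was measured at medians of 32.7 and 29.4 FPKM. Its log2 change from the counts was -0.37 ± 0.12 (edgeR adjusted p = 0.0211), but on log2(FPKM + 1) it was -0.05 (limma adjusted p = 0.801), and the call was also lost without vehicle 4 (-0.31, edgeR adjusted p = 0.0607) or vehicle 6 (-0.32, adjusted p = 0.0554).

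PPARalpha and RXR are known to bind a direct repeat of the half-site AGGTCA spaced by 1 base (DR1). RefSeq promoter windows of 300 bases, 250 before to 50 after a gene's start, were searched on both strands for AGGTCANAGGTCA with up to 2 mismatches. Of 27025 genes with a window, 1190 held a match (4.4%). A window was found for 110 of the 136 genes named by the rule of this report, and 8 of the 65 that rose and 4 of the 41 that fell held a match. The 250 bases before the start are shown for 2 genes that rose and 2 that fell, with the matched letters in capitals, 5′ to 3′ on the gene's strand (GRCm38.p6). Fabp1 and Slco1a1 match with 1 mismatch and on the opposite strand, and Mogat1 and Serpina12 with 2 mismatches and on the gene's own strand. The windows are chr6:71199629-71199878 (plus strand) for Fabp1, chr1:78510810-78511059 (plus) for Mogat1, chr12:104044444-104044693 (minus) for Serpina12 and chr6:141946963-141947212 (minus) for Slco1a1.
Fabp1: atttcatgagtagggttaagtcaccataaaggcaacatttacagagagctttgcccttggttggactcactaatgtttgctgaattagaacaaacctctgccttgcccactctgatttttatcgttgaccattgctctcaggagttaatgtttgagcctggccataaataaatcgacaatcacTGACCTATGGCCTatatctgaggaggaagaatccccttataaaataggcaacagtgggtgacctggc
Mogat1: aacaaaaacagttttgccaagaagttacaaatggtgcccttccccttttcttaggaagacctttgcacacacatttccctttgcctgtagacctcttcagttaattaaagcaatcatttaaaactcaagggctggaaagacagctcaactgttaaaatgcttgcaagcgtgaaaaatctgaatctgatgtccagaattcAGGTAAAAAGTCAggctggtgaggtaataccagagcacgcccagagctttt
Serpina12: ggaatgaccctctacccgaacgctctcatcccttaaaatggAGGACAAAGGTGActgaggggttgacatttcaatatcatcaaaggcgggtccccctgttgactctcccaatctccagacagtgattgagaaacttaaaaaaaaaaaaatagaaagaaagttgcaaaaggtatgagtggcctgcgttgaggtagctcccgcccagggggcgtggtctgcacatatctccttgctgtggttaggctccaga
Slco1a1: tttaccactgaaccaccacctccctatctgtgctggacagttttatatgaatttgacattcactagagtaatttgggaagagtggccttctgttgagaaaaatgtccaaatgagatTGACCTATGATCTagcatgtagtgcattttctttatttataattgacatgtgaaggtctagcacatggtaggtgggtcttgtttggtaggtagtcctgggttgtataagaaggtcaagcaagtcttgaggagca
The matches begin 67, 51, 209 and 134 bases before the start of Fabp1, Mogat1, Serpina12 and Slco1a1. Such a match describes letters and not binding. Matches stood in windows of genes that went either way: Fabp1 and Mogat1 rose by 1.42 and 6.49, and Serpina12 and Slco1a1 fell by 6.09 and 2.40 on the log2 scale. The E-box CACGTG was found in windows of 8 genes that rose and 3 that fell (8.09% of all genes), and the D-box TTATGTAA with up to 1 mismatch in 10 and 11 (18.2% of all genes). In Gss the DR1 and D-box matches overlapped.

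Mitochondrial oxidation rose almost throughout, in 24 of 27 genes tested of 29 listed, with none falling, a median of 0.86 and 25 risen without the muscle libraries. Eci1, which moves double bonds during oxidation, went from 95.4 to 129 FPKM in vehicle to 320 to 427 FPKM in the combination (1.67 ± 0.10, edgeR adjusted p = 6.61e-12). Decr1, the reductase for unsaturated acyl chains, rose by 1.54 ± 0.10 and Acadl, long-chain acyl-CoA dehydrogenase, by 1.18 ± 0.09. Thioesterases rose further, Acot2 by 3.65 ± 0.32 and Acot1 by 3.09 ± 0.35. Ucp2, an inner membrane carrier, went from 13.6, 17.3 and 26.0 FPKM to 108, 164 and 223 FPKM (3.14 ± 0.22). Groups did not overlap for any gene of this paragraph so far.

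Cpt1a, the carnitine step that admits fatty acids to mitochondria, stood apart from the genes downstream of it, at medians of 70.6 and 75.3 FPKM with overlapping groups (0.09 ± 0.12, adjusted p = 0.573). Pdk4, a kinase that restrains glucose oxidation, was at 34.7 FPKM in vehicle 1, at a median of 3.56 in vehicle and at 6.35, 11.6 and 14.5 FPKM in the combination. It did not pass with all libraries (0.40 ± 0.51, adjusted p = 0.568) but did without the muscle libraries (1.70, adjusted p = 0.000229) and without vehicle 1 alone (1.78, adjusted p = 9.4e-05). Fgf21 did not reach the level needed for testing.

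Lipid uptake, fatty acid binding and droplet coat genes gave 17 rises and 5 falls among 27 tested (18 and 4 without the muscle libraries), with a median of 0.88. Mogat1, counted among the rises, reached the level needed for testing only through libraries given DEHP. Cd36, a fatty acid receptor, stood at 5.11, 7.40 and 22.03 FPKM in vehicle, with vehicle 1 highest, and at 52.3, 69 and 86.4 FPKM in the combination (2.83 ± 0.24, edgeR adjusted p = 2.47e-09). Slc27a1, a fatty acid transporter also abundant in muscle, rose by 3.19 ± 0.27, and without the muscle libraries by 3.55. Fabp1, the main fatty acid binding protein of liver (chr6:71199879-71205034), went from 4108 to 6391 FPKM in vehicle to 11461 to 16384 FPKM in the combination (1.42 ± 0.12). Lpl, lipoprotein lipase, was at 73.5 FPKM in vehicle 1 against a median of 6.31 in vehicle, and at 30.8 to 111 FPKM in the combination (1.76 ± 0.50).

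Fabp4, the adipocyte fatty acid binding protein, rose by 1.34 ± 0.50 (adjusted p = 0.0374) and Pparg, the adipocyte receptor, by 0.53 ± 0.15 (adjusted p = 0.00876). Adipoq, Plin1, Lep and Retn, defining adipocyte genes, were too low to test, and Cfd did not pass (1.39, adjusted p = 0.282). The part of adipose RNA in these changes was not tested. Angptl4, an inhibitor of lipoprotein lipase, had medians of 95.8 and 32.1 FPKM with overlapping groups and fell by 1.58 ± 0.29 on the log2 scale. Plin4, a droplet coat protein, fell by 2.22 ± 0.50 on the log2 scale, and by 3.37 without the muscle libraries. Combination 6 held 4.09 FPKM of it against a group median of 0.47.

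Genes of cholesterol synthesis rose in 24 of 25 cases, with and without the muscle libraries, and none fell (median 1.08). Acat2, at the head of the pathway, stood at 36.6, 45.7 and 66.7 FPKM in vehicle and at 109, 157 and 170 FPKM in the combination (1.61 ± 0.15, edgeR adjusted p = 1.41e-08). Fdft1, squalene synthase, went from 32.1 to 57.0 FPKM in vehicle to 97.2 to 129 FPKM (1.53 ± 0.16), and Cyp51, a sterol demethylase, from 41.4 to 70.9 FPKM to 104 to 130 FPKM (1.26 ± 0.13). No overlap remained in these 3 genes. Rises ran from Srebf2, the regulator of the pathway (0.41), to Mvd, mevalonate diphosphate decarboxylase (2.11), while Stard4, a cholesterol carrier, did not pass (0.19).

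The synthesis of fatty acids and triglycerides gave 12 rises and 4 falls among 24 genes (11 and 6 without the muscle libraries), with a median of 0.59. Me1, malic enzyme, which supplies NADPH, went from 51.5 to 77.1 FPKM in vehicle to 183 to 347 FPKM (1.89 ± 0.17). Fads2, a desaturase, rose by 1.08 ± 0.13 and Fasn, fatty acid synthase, by 1.23 ± 0.29. Pklr, liver pyruvate kinase, fell by 1.32 ± 0.15 on the log2 scale, from 56.04 to 108 FPKM to 29.5 to 36.4 FPKM, with no overlap.

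**Figure D3:**
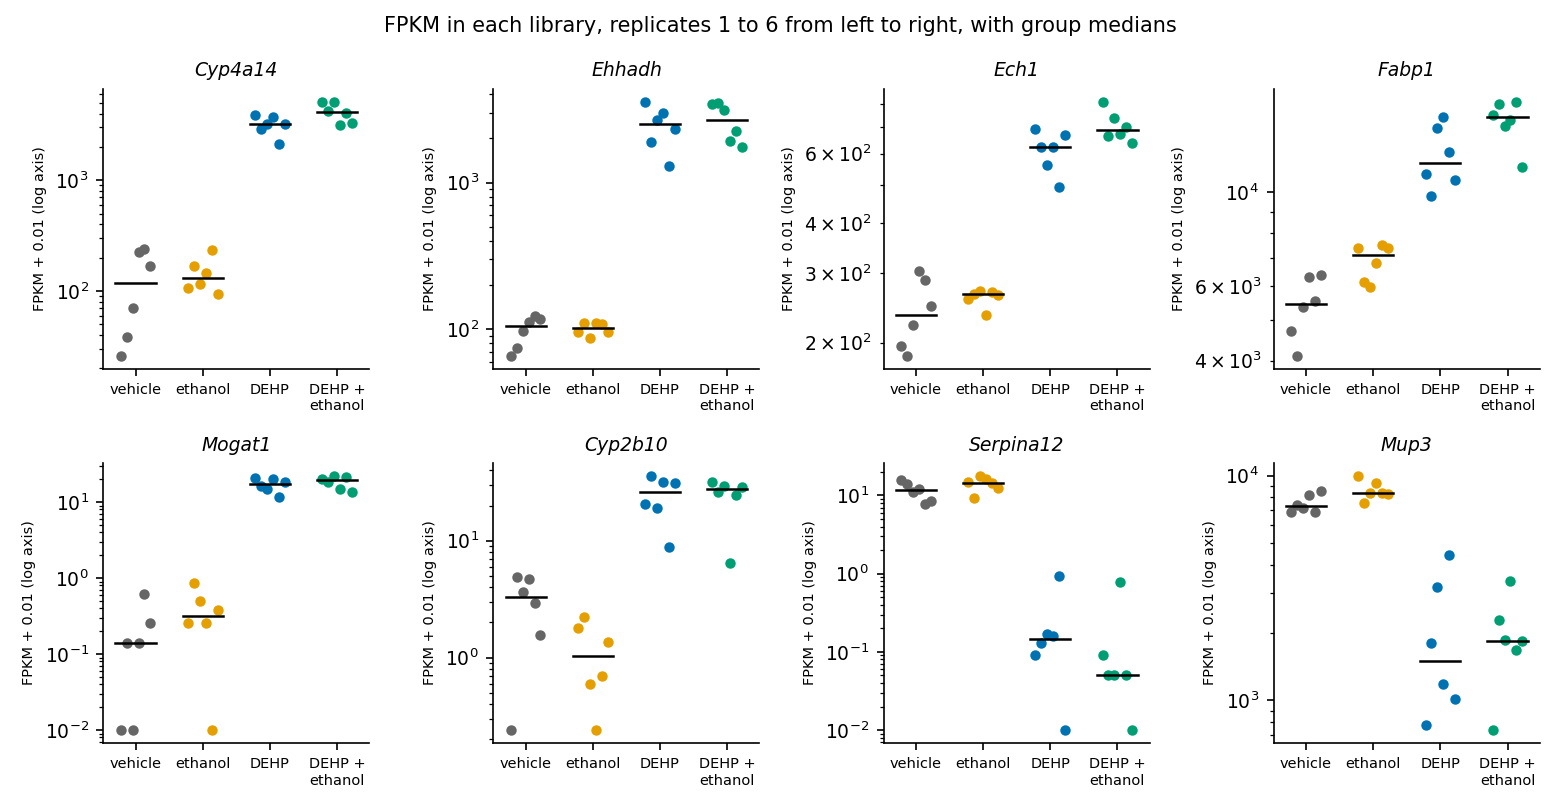
FPKM plus 0.01 (log axes) of 8 genes in each library of the 4 groups, replicates 1 to 6 from left to right, with a line at each group median. Vehicle and combination do not overlap in any of the 8 panels, and the medians of DEHP alone and the combination are 622 and 687 FPKM for Ech1 and 11743 and 15049.5 FPKM for Fabp1.

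Of 22 CAR and PXR targets tested among 27 listed, 10 rose and 1 fell (10 and 3 without the muscle libraries), and the median was 0.28. Its members Cyp2b9 and Cyp2a4 reached the level needed for testing only through libraries given DEHP. This count therefore describes only genes that passed the filter. Cyp2b10, the usual marker of CAR, stood at 0.23, 3.29 and 4.85 FPKM in vehicle and at 6.42, 27.6 and 31.9 FPKM in the combination (3.03 ± 0.43, edgeR adjusted p = 5.62e-06). Cyp2b9 lies close to it in sequence, and the counting may have split reads between them. Ugt1a1, a glucuronosyltransferase, rose by 0.63 ± 0.09, and Cyp2c37 fell by 0.96 ± 0.20 on the log2 scale. Cyp3a11, the usual marker of PXR, had medians of 2061 and 2456 FPKM (0.30 ± 0.12, adjusted p = 0.056). That gene passed in 6 of the 24 alternative settings, among them those without vehicle 4 (0.36) and without vehicle 6 (0.37).

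Genes expressed more in male than in female mouse liver were mostly lower. Of 18 tested, 11 fell and 2 rose (10 and 2 without the muscle libraries), with a median of -0.89. Slco1a1, an organic anion transporter, stood at 57.6, 95.5 and 101 FPKM in vehicle and at 2.09, 14.7 and 39.8 FPKM in the combination (-2.40 ± 0.51, edgeR adjusted p = 0.000708). Mup3, a urinary protein (chr4:62083476-62087317), went from 6872 to 8561 FPKM to 739 to 3380.4 FPKM (-1.95 ± 0.33). The ranges of these genes did not overlap. Hsd3b5, a steroid reductase, was at 0.36, 4.77 and 83.3 FPKM in the combination and at 70.5 to 134 FPKM in vehicle (-2.58 ± 0.83, adjusted p = 0.0164). Those that rose, Cyp4a12a (1.76 ± 0.14) and Cyp4a12b (2.44 ± 0.16), are also omega hydroxylases. Of 19 genes expressed more in female liver, 7 reached the level needed for testing and 5 of these rose. Members could reach that level through the DEHP groups alone, so this count describes only the genes that passed the filter.

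Serpins, a family of mostly secreted protease inhibitors, gave 4 of the 10 greatest falls chosen by the naming rule. Serpina9, counted there, met the rule's group mean of 1 FPKM only through vehicle 1, a muscle library. It was at 4.31 FPKM there, at 0.37 to 1.0 in the other vehicle libraries and at 0 to 0.36 in the combination. Serpina12, the adipokine vaspin (chr12:104028769-104044443), stood at 7.82, 11.6 and 15.9 FPKM in vehicle and at 0, 0.04 and 0.77 FPKM in the combination (-6.09 ± 0.49, edgeR adjusted p = 8.91e-10). Serpina1e, an alpha-1-antitrypsin gene expressed in males (chr12:103946931-103956897), went from 5019, 7697 and 10320.1 FPKM to 69.3, 243 and 2158 FPKM (-3.83 ± 0.75, adjusted p = 0.000279). Vehicle libraries were above all combination libraries in both. Combination 4 was the highest of its group in Serpina12, Serpina1e, Serpina9 (-4.05) and Serpina4-ps1, a pseudogene (-4.12 ± 0.87). Reads of Serpina1e may be shared with near-identical neighbours, of which Serpina1a fell by 0.39 on the log2 scale. Among the other great falls, Tff3, a trefoil peptide, went from a median of 13.2 to 1.41 FPKM (-2.99 ± 0.43), Hcn3, a cation channel, from 1.58 to 0.21 FPKM (-2.90 ± 0.35) and Rgs16, a regulator of G protein signalling, from 6.98 to 0.53 FPKM with overlapping groups (-2.86 ± 0.72).

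Of 22 bile acid genes tested, 3 rose and 6 fell (2 and 9 without the muscle libraries), with a median of -0.10, and the 40.9% called was near the 36.8% of all genes. The export pumps Abcc4 (from a median of 0.44 to 3.70 FPKM, 2.86 ± 0.32) and Abcc3 (from 50.7 to 94.2 FPKM, 0.85 ± 0.16) rose. Abcc4 reached the level needed for testing only through libraries given DEHP, so the count of rises describes only genes that passed the filter. Cyp39a1, an oxysterol hydroxylase, fell by 1.57 ± 0.28 on the log2 scale, from 6.33 to 14.3 FPKM to 2.12 to 4.58 FPKM. Cyp7a1, the first and controlling step from cholesterol to bile acids, stood at 6.95, 13.5 and 21.2 FPKM in vehicle and 5.75, 13.8 and 21.99 FPKM in the combination. These ranges coincide almost fully (0.05 ± 0.35, adjusted p = 0.934).

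Of 14 alcohol and aldehyde genes tested, 9 rose and 1 fell with and without the muscle libraries (median 0.35). Adh1, the main alcohol dehydrogenase of liver, stood at 1143, 1606 and 1761 FPKM in vehicle and at 2165, 2601 and 3238 FPKM in the combination (0.77 ± 0.13, edgeR adjusted p = 3.74e-05). Aldh3a2, the fatty aldehyde dehydrogenase that follows omega hydroxylation, rose by 1.88 ± 0.17, from 58.8 to 121 FPKM to 260 to 394 FPKM. Acss2, which turns acetate into acetyl-CoA, rose by 1.39 ± 0.20, and Aldh1a1, a cytosolic aldehyde dehydrogenase, by 0.86 ± 0.13. Cyp2e1, the ethanol-oxidising P450, had medians of 2771 and 3722 FPKM with overlapping groups (0.41 ± 0.12, adjusted p = 0.00866). Aldh2, the mitochondrial enzyme that clears acetaldehyde, had medians of 1022 and 1094 FPKM and did not pass (0.08 ± 0.09, adjusted p = 0.516). Adh7, at 1.49 FPKM in the median vehicle library, fell by 0.92 ± 0.22 on the log2 scale.

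Of 30 NRF2 and glutathione genes, 19 rose and 3 fell with and without the muscle libraries (median 0.57). Gstm4, a glutathione transferase, went from 28.7 to 49.6 FPKM in vehicle to 94.2 to 162 FPKM (1.53 ± 0.14, edgeR adjusted p = 1.31e-08). Gpx4, which reduces lipid peroxides, rose by 0.94 ± 0.10 and Taldo1, of the pentose phosphate pathway, by 0.82 ± 0.09. The usual NRF2 targets Nqo1 (1.34 ± 0.23) and Srxn1 (0.65) rose, whereas Gclc (-0.18), Gclm (0.04) and Hmox1 (-0.12) did not pass. Gss, glutathione synthetase, fell by 0.88 ± 0.14, from 30.2 to 41.8 FPKM to 14.8 to 23.0 FPKM, and Gstp1, also a male-biased gene, by 0.93 ± 0.17.

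**Figure D4:**
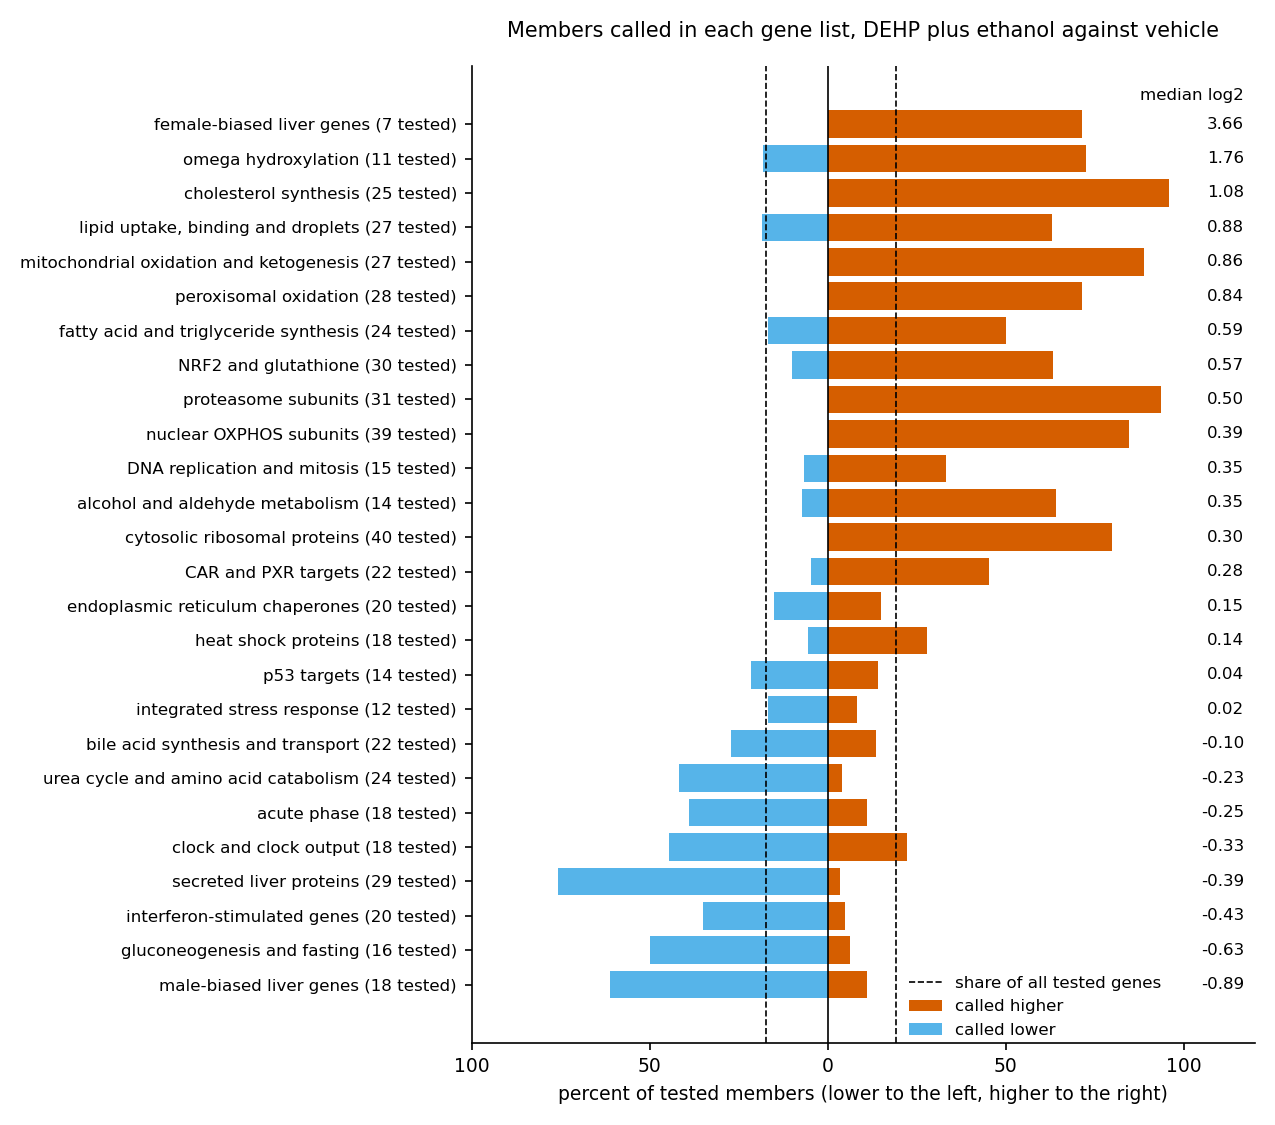
Percent of the tested members of 26 gene lists that rose (orange, right) or fell (blue, left) in the combination against vehicle, with the median log2 change at the right edge and dashed lines at the shares of all tested genes (19.3% and 17.4%). Cholesterol synthesis, proteasome, mitochondrial oxidation and OXPHOS lists lie farthest to the right and secreted and male-biased proteins farthest to the left.

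Genes of secreted liver proteins fell in 22 of 29 cases and rose in 1 (20 and 1 without the muscle libraries), with a median of -0.39. Alb, albumin (chr5:90460870-90476602), stood at 28988, 37810.1 and 39584 FPKM in vehicle and at 21359, 21938 and 25117 FPKM in the combination (-0.67 ± 0.11, edgeR adjusted p = 5.75e-05). C8a, a complement component, fell by 1.39 ± 0.15 and Ahsg, fetuin A, by 0.53 ± 0.09, both with no overlap. The exception was Apoa2, an apolipoprotein of HDL, which rose by 0.43 ± 0.10. Together these genes took 20.6 to 23.0% of all expected counts in vehicle and 15.9 to 17.5% in the combination. Of 8 hepatocyte markers, 5 of which are also secreted proteins of that list, 7 fell, and their sum was 53898 to 69942 FPKM in vehicle and 42078 to 46920.3 FPKM in the combination. None of 11 Kupffer cell and macrophage markers passed in either direction, and 2 of 10 stellate cell markers (Rgs5 and Hgf) fell, a share near the 17.4% of all genes (3 fell and 1 rose without the muscle libraries). Of 12 endothelial markers 4 fell (Stab1, Ehd3, Bmp2 and Fcgr2b), with and without the muscle libraries. The 33.3% of endothelial markers called was near the 36.8% of all genes, of which 17.4% fell.

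Acute phase genes fell in 7 of 18 cases and rose in 2, but without the muscle libraries 3 fell and 2 rose (median -0.25, and -0.17 without them). Saa2, serum amyloid A, ranged from 15.1 to 2049 FPKM within vehicle and from 33.3 to 231 FPKM in the combination (-2.99 ± 0.92, edgeR adjusted p = 0.0128, and adjusted p = 0.0679 without the muscle libraries). Hamp, the iron hormone hepcidin, had medians of 1314 and 618 FPKM with overlapping groups (-1.07 ± 0.31, adjusted p = 0.00973). Crp, C-reactive protein, fell by 0.47 ± 0.11. Urea cycle and amino acid genes fell in 10 of 24 cases and rose in 1 (13 and 0 without the muscle libraries), with a median of -0.23. Of this list 45.8% were called, against 36.8% of all genes, and 17.4% of all genes fell. Whether the share of this list exceeds chance was not tested. Cps1, which feeds ammonia into the urea cycle, stood at 760 to 959 FPKM in vehicle and at 422 to 613 FPKM in the combination (-0.71 ± 0.11). Otc (-0.64 ± 0.15) and Asl (-0.51 ± 0.10), later enzymes of the cycle, also fell without overlap. Interferon-stimulated genes fell in 7 of 20 cases and rose in 1 (6 and 1 without the muscle libraries), with a median of -0.43. The 40.0% called was near the 36.8% of all genes. Rsad2, the antiviral protein viperin, went from 2.13 to 5.08 FPKM to 0.98 to 1.56 FPKM (-1.15 ± 0.20), and Ifit1 from a median of 3.18 to 1.34 FPKM (-1.22 ± 0.27).

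Proteasome subunits rose in 29 of 31 cases (27 without the muscle libraries), none fell and the median was 0.50. Psmb5, a catalytic subunit, went from 105 to 123 FPKM in vehicle to 181 to 287 FPKM (0.93 ± 0.11, edgeR adjusted p = 2.64e-07), and Psma7 rose by 0.80 ± 0.09. Nuclear-encoded OXPHOS subunits rose in 33 of 39 cases (31 without the muscle libraries) with a median of 0.39, for example Cox6b1 of cytochrome oxidase (0.57 ± 0.08) and Ndufa10 of complex I (0.56 ± 0.08). Cytosolic ribosomal protein genes rose in 32 of 40 (31 without the muscle libraries) with a median of 0.30, among them Rpl22 (0.38 ± 0.06). With the trend of each library over gene length removed, the proteasome list kept a median of 0.32 with 25 risen, whereas the OXPHOS median was 0.15 with 12 risen and 1 fallen and the ribosomal median 0.03 with 3 risen and 2 fallen. Reads of ribosomal protein genes may also be shared with processed pseudogenes.

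Of 26 genes of DNA replication and mitosis, 15 were high enough to be tested, and 5 rose and 1 fell (6 and 1 without the muscle libraries), with a median of 0.35. The 40.0% called was near the 36.8% of all genes. Mcm6, a subunit of the replicative helicase, stood at 1.2, 1.72 and 2.42 FPKM in vehicle and at 2.84, 3.79 and 7.74 FPKM in the combination (1.25 ± 0.25, edgeR adjusted p = 0.000354), with no overlap. Cdc20, which triggers chromosome separation, rose by 1.91 ± 0.59 with overlapping groups, at 0.08 to 0.49 FPKM in vehicle and 0.23 to 1.26 FPKM in the combination. Without libraries given DEHP it would not have reached the level needed for testing, so the count of rises describes only genes that passed the filter. Rrm2, a subunit of ribonucleotide reductase, fell by 1.22 ± 0.27. Levels of this list were low throughout, and Mki67, Top2a and Cdk1, markers of dividing cells, were not high enough to be tested.

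Against ethanol alone the combination differed in 2976 of 10697 genes (27.8%), 1620 higher (15.1%) and 1356 lower (12.7%). The interaction, the log2 change of the combination over DEHP minus that of ethanol over vehicle, passed in 686 genes (6.41%), 355 above 0 (3.32%) and 331 below (3.09%). Vehicle, ethanol, DEHP and the combination are compared within 1 fit and share samples, so the values of single genes are set side by side.

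Cdkn1a, the cell cycle inhibitor p21 (chr17:29090979-29100722), had medians of 49.98 FPKM in vehicle, 1.29 with ethanol, 35.2 with DEHP and 24.3 with the combination. All 6 combination libraries (16.8 to 26.0 FPKM) lay below all vehicle libraries (43.2 to 83.7 FPKM) and far above the ethanol median. The change against vehicle was -1.30 ± 0.16 (edgeR adjusted p = 1.08e-06), that against ethanol alone 3.85 (adjusted p = 1.31e-12) and the interaction 4.65 (adjusted p = 1.36e-11). Trp53inp1, another p53 target, had medians of 24.4, 4.58, 15.2 and 9.18 FPKM in the same order (-1.37 ± 0.12 against vehicle, interaction 1.58). Of 14 p53 targets tested, 2 rose and 3 fell against vehicle (3 and 3 without the muscle libraries), with a median of 0.04. The 35.7% called was near the 36.8% of all genes. Bbc3, the death protein PUMA (1.36 ± 0.23), and Gadd45a, a growth arrest gene (1.05 ± 0.28), were among the rises.

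Clock genes were split, with 4 of 18 risen and 8 fallen against vehicle (3 and 8 without the muscle libraries; median -0.33). Nr1d1, the repressor REV-ERBalpha, stood at 3.17, 5.49 and 9.70 FPKM in vehicle and at 20.9, 30.7 and 52.2 FPKM in the combination (2.52 ± 0.33, edgeR adjusted p = 2.04e-06), with medians of 59.4 with ethanol and 20.1 with DEHP. Dbp, a clock output factor, had medians of 0.66, 46.3, 1.53 and 1.54 FPKM in vehicle, ethanol, DEHP and the combination, and overlapped between vehicle and the combination (1.84 ± 0.52, adjusted p = 0.00743; adjusted p = 0.057 by limma on log2(FPKM + 1)). Against ethanol alone it was lower by 4.22 on the log2 scale (a change of -4.22, edgeR adjusted p = 6.77e-09; interaction -4.92). Per1, a core repressor, went from 4.03 to 7.21 FPKM in vehicle to 0.66 to 1.36 FPKM in the combination (-2.43 ± 0.33), and was also lower than with ethanol alone (-1.58, adjusted p = 0.000713). Bhlhe40, another repressor, fell by 1.28 ± 0.21 against vehicle. The labels give no time of collection, so the part of clock time in these values was not tested.

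Gluconeogenic and fasting genes fell in 8 of 16 cases and rose in 1, with and without the muscle libraries (median -0.63, and -0.44 without them). G6pc, the last enzyme of glucose release, stood at 145, 219 and 241 FPKM in vehicle and at 58.9, 88.4 and 111 FPKM in the combination (-1.26 ± 0.19, edgeR adjusted p = 1.64e-05), with no overlap. The medians with ethanol and DEHP alone were 60.4 and 97.0 FPKM, and the interaction was 1.47 (adjusted p = 0.0019). Foxo1, a fasting regulator, fell by 0.99 ± 0.10, Klf15 by 0.73 ± 0.09 and Pck1, phosphoenolpyruvate carboxykinase, by 0.86 ± 0.19, while Pcx, pyruvate carboxylase, rose by 0.44 ± 0.11. Lpin1, a phosphatidate phosphatase induced by fasting, had medians of 74.9 FPKM in vehicle, 10.2 with ethanol, 27.8 with DEHP and 27.0 with the combination. It was below vehicle (-1.38 ± 0.20, adjusted p = 8.83e-06) and above ethanol alone (1.41, adjusted p = 9.41e-06), with an interaction of 2.78.

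Heat shock genes rose in 5 of 18 cases and fell in 1 against vehicle (7 and 2 without the muscle libraries; median 0.14, and 0.28 without them). Against ethanol alone 15 of 18 were higher (15.1% of all genes were) and none lower (12.7%). With ethanol alone 10 of 18 had fallen against vehicle (14.5% of all genes fell there) and none had risen (14.2%). The greatest rises against vehicle were those of Hspb1, a small heat shock protein (0.94), and of the mitochondrial chaperones Hspe1 (0.84 ± 0.09) and Hspd1 (0.72 ± 0.09), which share a promoter. Hspa1b, the inducible cytosolic HSP70, had medians of 13.8, 5.48, 9.36 and 9.30 FPKM in vehicle, ethanol, DEHP and the combination (-0.62 ± 0.17 against vehicle, 0.66 against ethanol alone). Its near-identical copy Hspa1a may hold a share of its reads. Endoplasmic reticulum chaperones rose in 3 of 20 cases and fell in 3 (7 and 1 without the muscle libraries; median 0.15, and 0.23 without them). Of the 20, 11 were higher than with ethanol alone (15.1% of all genes were) and none lower (12.7%). With ethanol alone 8 of the 20 had fallen against vehicle (14.5% of all genes) and none had risen (14.2%). Manf, a secreted stress protein, stood at 32.4, 52.9 and 83.8 FPKM in vehicle and at 47.1, 93.4 and 124 FPKM in the combination (0.68 ± 0.24, edgeR adjusted p = 0.0302), with a median of 29.5 FPKM with ethanol (difference 1.44, adjusted p = 7.68e-05). Leaving out vehicle 4, vehicle 5, vehicle 6, combination 3, combination 4 or combination 5 ended its call against vehicle (0.56 to 0.65). Herpud1, of protein degradation at that organelle, fell by 0.94 ± 0.16, with medians of 304 and 147 FPKM. Of 12 integrated stress response genes tested, 1 rose (Trib3, a pseudokinase, 1.16 ± 0.24) and 2 fell (Ddit4, an mTOR inhibitor, -1.03 ± 0.21, and Cebpb, a transcription factor, -0.96 ± 0.20), and Atf4, its central factor, did not pass (0.17). With all 12 libraries, 33.3% of heat shock genes, 30.0% of endoplasmic reticulum chaperones and 25.0% of integrated stress response genes were called against vehicle. These shares were below the 36.8% of all genes.

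**Figure D5:**
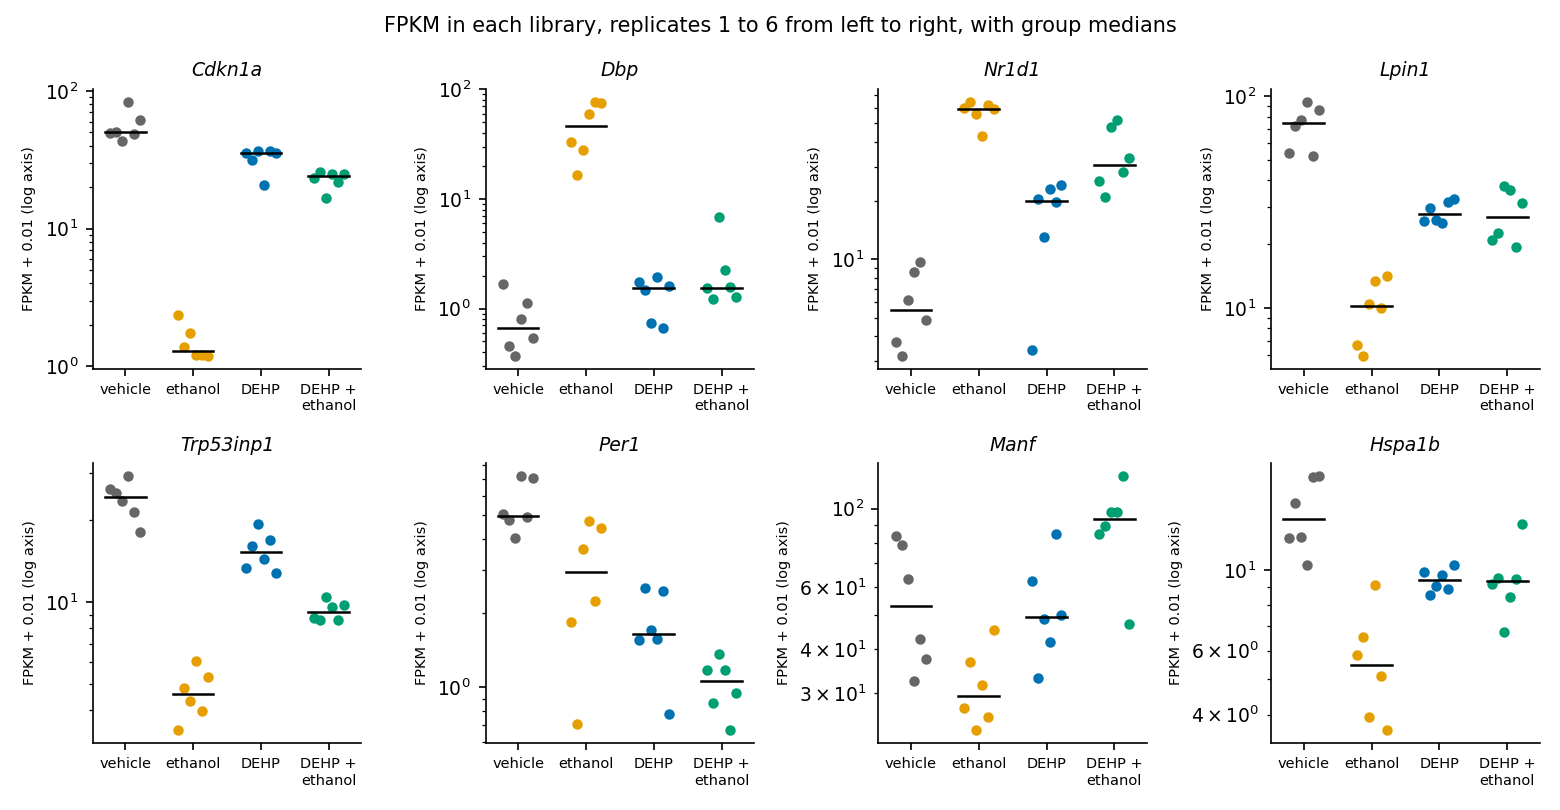
FPKM plus 0.01 (log axes) of 8 genes in each library of the 4 groups, replicates 1 to 6 from left to right, with a line at each group median. For Dbp and Lpin1 the combination median (1.54 and 27.0) is close to that of DEHP alone (1.53 and 27.8) and apart from ethanol alone (46.3 and 10.2), while for Cdkn1a and Trp53inp1 it lies between both.

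Against DEHP alone the combination differed in 13 genes (0.122%), 5 higher (0.0467%) and 8 lower (0.0748%), while 1159 genes had an unadjusted p below 0.05 by the same edgeR test and DESeq2 called 44. Of the genes with the greatest changes against vehicle, the differences from DEHP alone were 0.40 ± 0.37 for Cyp4a14 (edgeR adjusted p = 0.72), 0.14 ± 0.21 for Ehhadh (adjusted p = 0.848) and -0.48 ± 0.83 for Serpina12 (adjusted p = 0.867). A p that misses the threshold does not show that these values were equal. Among the 13, Gadd45g, a growth arrest gene, had medians of 14.6 FPKM in vehicle, 6.74 with ethanol, 3.01 with DEHP and 16.9 with the combination, a difference of 2.32 ± 0.48 from DEHP alone (adjusted p = 0.0421) and of 0.19 ± 0.41 from vehicle (adjusted p = 0.752). Slc25a25, a mitochondrial ATP-magnesium carrier, had medians of 43.1 FPKM in vehicle, 12.4 with DEHP and 32.9 with the combination (1.21 ± 0.24 from DEHP alone). Both were thus nearer to vehicle in the combination than with DEHP alone. Wnk4, a kinase, was higher than with DEHP alone by 1.40 ± 0.26, Tuba4a, a tubulin, by 0.40 ± 0.08 and Srp9, of the signal recognition particle, by 0.31 ± 0.06. Wnk4 was low, at medians of 0.75 FPKM in vehicle, 0.18 with DEHP and 0.47 with the combination. It reached 1 FPKM only with ethanol alone (1.24 to 1.89 FPKM).

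The lower genes with a symbol had medians farther from vehicle in the combination than with DEHP alone. Trp53inp1 was lower than with DEHP alone by 0.72 on the log2 scale (-0.72 ± 0.12, edgeR adjusted p = 0.0236), Ppp1r10, a phosphatase regulator, had medians of 14.7, 13.5 and 5.19 FPKM in vehicle, DEHP and the combination (-1.32 ± 0.27), and Mug2, a secreted protease inhibitor, had 208, 133 and 95.3 FPKM (-0.47 ± 0.09). The others were Lnx2 (-0.44), Cpeb2 (-0.70), Fbxl20 (-0.51), Akap13 (-0.47) and a gene listed without a symbol (-1.04). With each combination or DEHP library left out in turn, the log2 differences of the 13 genes stayed within 84.9 to 121% of their values over all libraries. These genes were picked in the same libraries, so that range is no test of whether their differences hold. The number of calls varied. Without combination 1, 2 or 5 edgeR called 0 genes (873, 1006 and 1090 at an unadjusted p below 0.05), and without DEHP 2 or 3 it also called 0 (956 and 916). Without combination 3 it called 6 genes, without DEHP 5 it called 6 and without DEHP 6, which holds pancreatic transcripts, 4. Without the muscle libraries it called 21.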

How the data were processed

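Per the labels' protocols, liver was frozen and its RNA extracted with Trizol, and a TruSeq kit turned 1 ug per sample into libraries. The authors deposited 1 table per library with expected counts per gene, estimated numbers of reads of which 94.5 to 95.3% were whole, and FPKM, the authors' counts scaled for length and library size. The submitters' processing notes name Cuffdiff, mm10 and GRCm38, while the counting tool and its strand setting were not given in sources used here. A gene absent from a table was taken as 0.

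Of 17537 genes, the 10697 with at least 1 FPKM in at least 6 of 24 libraries were tested. Expected counts were rounded and fitted with edgeR 4.0.16 (R 4.3.3; TMM factors, 1 mean per group, all 24 libraries, quasi-likelihood test, Benjamini-Hochberg adjusted p below 0.05), so the ethanol and DEHP groups share in the estimate of spread. All adjusted p-values are from this fit over all tested genes unless another tool is named, and errors of log2 changes are standard errors from it. FPKM is given as lowest, median and highest library of 6. Alternatives used DESeq2 1.42.0, limma 3.58.1 on log2 FPKM or TPM with a pseudocount of 1 or 0.1, other filters, removal of a length trend, a replicate block, and libraries left out. In simulated data the share of calls that fell on unchanged genes was somewhat above the threshold set for the adjusted p. Tables and plots used Python 3.11.15, pandas 2.3.3, numpy 2.4.6 and matplotlib 3.10.9.

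Depth was 7510462 to 8016662 expected counts per library. Pairs of libraries within a group differed by 6.52 to 54.45 in chi-square per degree of freedom, and none was a duplicate. Vehicle 1 and combination 6 were kept, and counts against vehicle were repeated without them.

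The groups, gene lists and named genes were chosen with earlier results of these data known. Named by rule were the 10 largest rises and falls among genes called with and without vehicle 1 and combination 6, with a group mean of 1 FPKM or more and a full symbol. To these the rule adds up to 4 called members with the smallest adjusted p in each list, up to 2 in its rarer direction, and 16 genes given by name, 136 in all. Values of 3 genes of the lists are not reported here. Other genes in the text were chosen after their values were seen. Gene positions and promoters are from RefSeq for GRCm38.p6, matched by gene ID (17491 of 17537).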

Additional observations from a re-analysis of the deposited data

Results flagged for a closer look

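Among the named genes, 29 of 272 sets of 6 libraries (10.7%) held a library far from the other 5 by Dixon's criterion, which chance meets in about 1 of 20 sets. Vehicle 1 was that library in 8 sets. It was the highest for Serpina9 (4.31 FPKM), Ugt2b38 (16.82), Slc27a1 (8.94), Cd36 (22.03), Hspb1 (119.71) and Pdk4 (34.69), and the lowest for Cyp2c37 (97.34) and Gls2 (135.97). Combination 4 was that library in 7 sets. It was the highest for Serpina12 (0.77 FPKM), Serpina4-ps1 (10.43), Serpina9 (0.36), Serpina1e (2158.4) and Rgs16 (3.74), and the lowest for Acat2 (108.67) and Cyp2b10 (6.42), so that several of the strongest responses were smallest in this library.

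The other libraries apart were fewer per library. In vehicle these were Cyp2b9 in replicate 5 (2.57 FPKM), Cyp51 in replicate 3 (70.85), Orm3 and Rsad2 in replicate 2 (15.48 and 5.08), and, at the low end, Slco1a1 in replicate 2 (57.55), Psmb5 in replicate 3 (104.55) and Bbc3 in replicate 6 (2.5). In the combination these were Chil1 and Cox6b1 in replicate 1 (19.68 and 720.28 FPKM), Bhlhe40 and Dbp in replicate 3 (13.1 and 6.88), Stat2 in replicate 5 (13.84), Plin4 in replicate 6 (4.09) and, at the low end, Gls2 in replicate 3 (104.61).

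For 23 named genes the ethanol difference itself differed between mice with and without DEHP, by the interaction term of the edgeR fit. The term was above 0 on the log2 scale for Cdkn1a (4.65), Lpin1 (2.78), Plin4 (2.67), Pdk4 (2.49), Trp53inp1 (1.58), Angptl4 (1.55), Manf (1.53), G6pc (1.47), Hspa1b (1.29), Ddit4 (1.29), Cebpb (1.07), Rora (0.96), Herpud1 (0.92) and Pdia4 (0.67). It was below 0 for Dbp (-4.92), Cdc20 (-3.6), Cyp7a1 (-2.43), Nr1d1 (-2.3), Trib3 (-1.31), Cyp4a12b (-0.97), Gss (-0.83), Cyp4v3 (-0.52) and Nags (-0.4). Without vehicle 1 and combination 6 the term for Plin4 was 1.16 (edgeR adjusted p = 0.181), and without vehicle 1 that for Pdk4 was 1.08 (adjusted p = 0.146). Without combination 6 alone the call of Plin4 was also lost (adjusted p = 0.12), and without both libraries that of Pdk4 (adjusted p = 0.189). The calls of Cyp4v3 (-0.46), Nags (-0.35) and Trib3 (-1.11) were also lost without both libraries, and that of Pdia4 (0.58) without vehicle 1.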

How the results depend on the processing

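Of 136 named genes, 118 kept direction and side of the threshold under all 24 alternatives. Leaving out single vehicle or combination libraries gave 1786 to 1954 genes higher and 1544 to 2008 lower than vehicle. The replicate block gave 2012 and 1853. Same-numbered libraries did not deviate together by this measure (correlations from -0.215 to 0.129, 2 of 6 pairs above 0.1, and 1 vehicle library closest to its own number). Labels do not say what the numbers mean, and shared handling or order was not tested. The 13 genes that differed from DEHP alone became 44 with DESeq2, 7 and 6 with limma on log2 FPKM (pseudocounts 1 and 0.1), 1 with no FPKM filter, 2 with the length trend removed, 5 with the replicate block, 21 without the muscle libraries, 4 without DEHP 6 and 0 to 18 with single vehicle, combination or DEHP libraries left out, where leaving out DEHP 1 to 5 was chosen after seeing the data. Cyp7a1, near 0 and not called, changed sign: -0.08, -0.10 and -0.13 with limma (log2 FPKM at both pseudocounts, and TPM), -0.02 at an FPKM of at least 5, -0.07 with the replicate block, -0.20 without the muscle libraries and -0.14 to 0.23 without single libraries. Calls were lost most often by Creld2 (13 alternatives), Orm3 (8), Manf and Socs3 (7 each), Ppara (6) and Saa2 (5). The causes were not tested. The filter of 1 FPKM in 6 libraries left genes such as Fgf21 and most defining adipocyte genes untested.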

Other observations

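Some transcripts without an established name also changed between the combination and vehicle. 1810011O10Rik stood at 14.1, 25.2 and 35.3 FPKM in vehicle (lowest, median and highest) and at 2.22, 4.08 and 5.59 FPKM in the combination, a log2 change of -2.64 ± 0.24 (edgeR adjusted p = 4.9e-09). Its medians with ethanol alone (4.06 FPKM) and DEHP alone (4.73 FPKM) were as low, so that each of the 3 treatments lay below vehicle. Gm15441 rose by 2.37 ± 0.36, from 0.59 to 5.02 FPKM in vehicle to 11.7 to 20.3 FPKM in the combination, with medians of 1.5 FPKM with ethanol alone and 11.02 with DEHP alone. Gm3776, a gene close in sequence to Gsta1 that may share reads with it, rose by 2.38 ± 0.38, and C730036E19Rik fell by 1.99 ± 0.31. These were chosen after their values were seen.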
